A study of Arabidopsis thaliana with 90 samples.

Results

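Trimethylation and monomethylation of lysine 4 of histone H3 (H3K4me3 and H3K4me1) were compared over the genes of wild-type Arabidopsis thaliana. The 6 libraries compared were the 3 H3K4me3 and the 3 H3K4me1 libraries of the Col-0 ecotype, out of 90 libraries in the series, and they were chosen by their antibody and genotype labels. The study asked how the DREAM complex and the COMPASS subunit WDR5a act on transcription, with chromatin immunoprecipitation sequencing of several genotypes; plants with mutations were not analysed here. All 6 libraries came from whole seedlings, 9 days old, grown in continuous white light with no further treatment, in 3 biological replicates per antibody (both antibodies from Millipore, per the labels). Whole seedlings mix cell types, so a gene that carried both marks in the same cells and one that carried them in different cells cannot be told apart.

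Lysine 4 of histone H3 is methylated in steps by SET-domain enzymes, in part within COMPASS-like complexes, and the methyl groups are removed by LSD1-like and JmjC-domain demethylases. In plants H3K4me3 is known from the start of transcribed genes, next to the nucleosome that carries the histone variant H2A.Z, while H3K4me1 is known from the bodies of transcribed genes. H3K4me2 lies between them in degree of methylation and is placed and removed by overlapping sets of enzymes.

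The values were the peaks that the authors called in each library, with their positions and their fold (enrichment over the peak caller's background, as the authors deposited it). Fold was used only to describe and rank peaks within a list of the same antibody, because antibodies differ in enrichment. Peak lists hold no read totals, so the sequencing depth behind each library was unknown. A gene was counted as carrying a mark when peaks covered at least 200 bp of its annotated length, or the whole gene where it was shorter, in all 3 libraries. Both marks were counted over the same window, the annotated gene, in 27444 nuclear protein-coding genes. Gene lengths came from the RefSeq table of TAIR10.1, and peak positions are given in TAIR10. Gene direction was taken from the H2A.Z summit, not from the marks compared, and 16683 genes could be oriented in this way. With 3 libraries against 3, the exact permutation test cannot give a two-sided p under 0.1, so no difference between the marks over libraries could pass a threshold of 0.05, and the tests below are read together with the per-library values.

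H3K4me3 lay over many more genes than H3K4me1, and H3K4me1 rarely lay on a gene without it. H3K4me3 was called on 15916 genes, 58% of all genes, and H3K4me1 on 9982 genes, 36.4%. Both marks were found on 9645 genes (35.1%), H3K4me3 alone on 6271 (22.9%), H3K4me1 alone on 337 (1.23%) and neither on 11191 (40.8%). Of the H3K4me1 genes 96.6% also carried H3K4me3, whereas 60.6% of the H3K4me3 genes also carried H3K4me1. Over the 9 pairings of single libraries these shares were 93.7% to 95.9% and 63.2% to 66.9%, so the asymmetry was present in every pairing. With only the peaks above the median score of each library, 61.7% of H3K4me1 genes carried H3K4me3 and 36.5% of H3K4me3 genes carried H3K4me1. Among genes with no neighbour within 1000 bp, 43.4% of H3K4me3 genes did. Of the genes without H3K4me3, 2.92% carried H3K4me1.

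The class sizes differed little between replicates except for the smallest class. Pairing the libraries by replicate number 1, 2 and 3, both marks were on 10347, 10841 and 10832 genes. H3K4me3 alone was on 5850, 5559 and 5421 genes, and neither mark on 10774, 10365 and 10506 genes. H3K4me1 alone was on 473, 679 and 685 genes, each more than the 337 that met the rule in all 3 libraries; without H3K4me1 replicate 1 the rule gave 520. Of the genes with H3K4me3 alone, 4465 had no H3K4me1 call in any library and 1806 had a call in 1 or 2 of the 3. Of the 337 genes with H3K4me1 alone, 264 had no H3K4me3 call in any library and 73 had a call in 1 or 2.

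Genes with both marks were long and genes with H3K4me3 alone were short. The median length was 3010 bp for genes with both marks (interquartile range 2339 to 4020 bp) and 1753 bp for genes with H3K4me3 alone (1305 to 2353 bp). It was 2841 bp for genes with H3K4me1 alone (1993 to 4231 bp) and 1424 bp for genes with neither mark (842 to 2201 bp). In the 3 same-numbered library pairs the median was 2944, 2911 and 2909.5 bp for genes with both marks, against 1716.5, 1668 and 1676 bp for genes with H3K4me3 alone. The ranges of these medians did not overlap, and the gap between them was many times the spread between pairs.

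The share of genes with both marks grew in every step of gene length. It was 0% in the 1237 genes under 500 bp, 0.159% at 500 to 1000 bp, 3.09% at 1000 to 1500 bp and 21.9% at 1500 to 2000 bp. At 2000 to 3000 bp it was 49.0%, at 3000 to 4000 bp 64.0%, at 4000 to 5000 bp 69.7%, at 5000 to 7500 bp 77.8%, and in the 368 genes of at least 7500 bp it was 89.9%. H3K4me3 alone had its highest share in the middle of the range, 38.7% at 1000 to 1500 bp, and 0.815% in the longest genes, where only 3 genes carried it without H3K4me1.

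**Figure D1:**
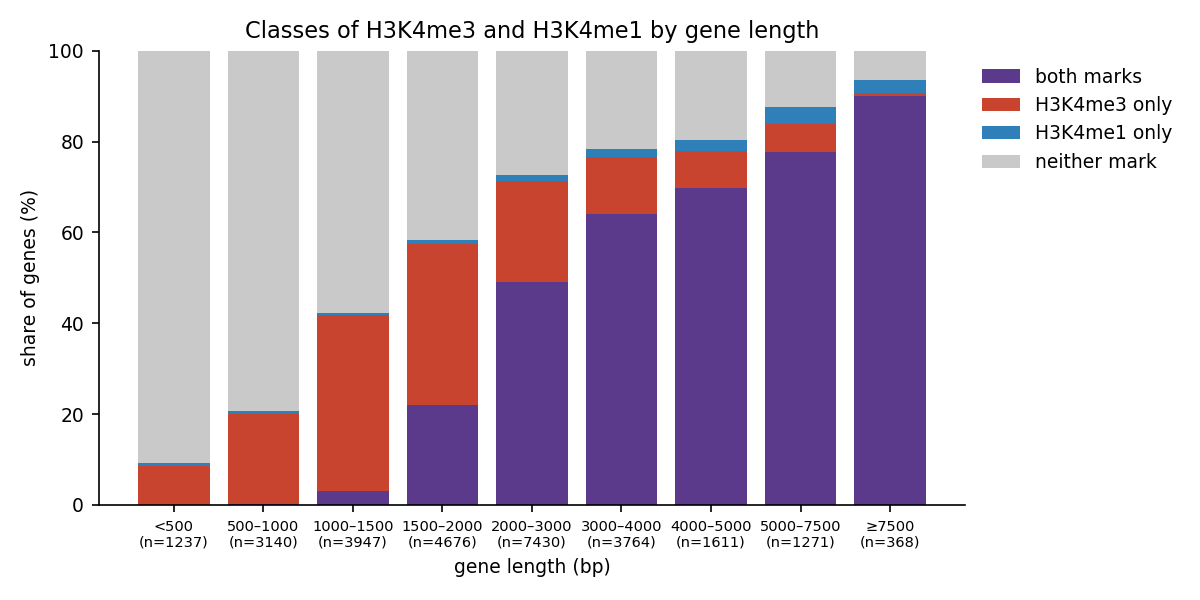
The bars show the share of genes (vertical axis, percent) in each of the 4 classes, by bins of gene length (horizontal axis, bp, with the number of genes under each bin). Genes with both marks take up 0% of the shortest bin and 89.9% of the longest, while H3K4me3 alone is largest at 1000 to 1500 bp with 38.7%.

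A longer gene offers more bases to be covered. Among H3K4me3 genes of at least 2000 bp that could be oriented, H3K4me1 was therefore also counted in a window of the same size in every gene, 1000 to 2000 bp from the 5′ end, a measure chosen after the length bins were seen. H3K4me1 covered at least 200 bp of that window in 67.1% of genes of 2000 to 3000 bp, 80.3% at 3000 to 4000 bp, 82.9% at 4000 to 5000 bp, 85.8% at 5000 to 7500 bp and 90.3% of longer genes. The mean over single H3K4me1 libraries was 76.0% ± 2.46 in the shortest of these bins and 92.7% ± 0.817 in the longest (SD, n = 3). The order of the bins was thus the same with a window of fixed size, over a narrower range. The window did not lie in the same part of every gene. In genes of 2000 to 3000 bp it ended within 1000 bp of the other end of the gene, and in longer genes farther from it. Towards that end H3K4me1 coverage fell, as given below for genes with both marks. The window therefore cannot separate gene length from position in the gene, and an effect of length alone was not tested.

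The length of gene that H3K4me3 left uncovered also ordered H3K4me3 genes by how often they carried H3K4me1. Where fewer than 250 bp of the gene lay outside H3K4me3, 0.229% of 874 genes carried H3K4me1. A call needed 200 bp under H3K4me1, and peaks of the marks shared few bases, so the rule left little room for a call there. Where 500 to 750 bp lay outside, 7.79% of 1066 genes did, where 1000 to 1500 bp lay outside 60.9% of 2930 genes did, and where at least 5000 bp lay outside 95.6% of 869 genes did.

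Along the genes that carried them both, the marks followed each other in a fixed order from the end with H2A.Z, taken as the 5′ end. In 4419 oriented genes of at least 3000 bp with both marks, H3K4me3 coverage was highest at 300 to 400 bp from the 5′ end, where 96.3% ± 0.208 of bases were under a peak (SD, n = 3 libraries). H3K4me1 coverage was highest at 1700 to 1800 bp, with 88.3% ± 2.69. The curves crossed at 800 to 900 bp, where H3K4me3 covered 44.8% and H3K4me1 50.5%. The 8678 oriented genes of any length with both marks were also cut into 10 equal parts from the 5′ end. Part 1 was covered to 85.0% ± 0.898 by H3K4me3 and to 0.734% ± 0.0448 by H3K4me1. In part 6 H3K4me3 covered 2.48% ± 0.0536 and H3K4me1 86.8% ± 3.09, and in part 10 H3K4me3 covered 1.38% ± 0.0975 and H3K4me1 2.101% ± 0.423. Both ends of the gene body were thus nearly free of H3K4me1.

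**Figure D2:**
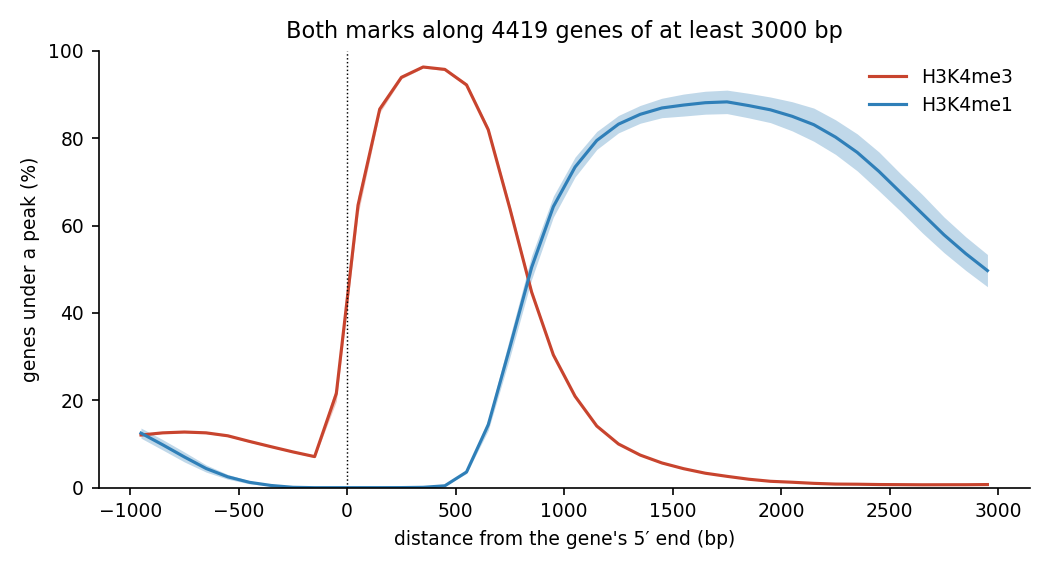
Lines give the mean over 3 libraries of the share of bases under a peak (vertical axis, percent) by distance from the 5′ end in bp (horizontal axis), in 4419 genes of at least 3000 bp with both marks; bands are ± 1 SD. H3K4me3 peaks at 96.3% at 300 to 400 bp, H3K4me1 at 88.3% at 1700 to 1800 bp, and the lines cross at 800 to 900 bp.

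In these genes the H3K4me1 summit lay downstream of the H3K4me3 summit in 99.3% ± 0.0631 of cases over the 9 library pairings, with a lowest value of 99.2%. The pair of peaks abutted. The median distance between the end of the H3K4me3 peak and the start of the H3K4me1 peak was -13.1 bp, an overlap, and ranged from -30 to 4.5 bp over the pairings. The 25th and 75th percentiles averaged -95.6 and 124 bp. The chromatin was sheared to fragments longer than this distance, so positions at this scale are below the resolution of the assay.

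Peaks of the marks touched often but shared few bases. Of the H3K4me3 peaks 35.7% ± 2.17 touched an H3K4me1 peak, and 0.0963% ± 0.0203 had 50% or more of their width under one (SD over 9 pairings). Of the H3K4me1 peaks 40.6% ± 2.49 touched an H3K4me3 peak, and 1.12% ± 0.0869 had 50% or more of their width under one. The shared bases made up 4.64% of all bases under H3K4me3 and 3.76% of those under H3K4me1. For comparison, 97.9% of H3K4me3 peaks and 82.1% of H3K4me1 peaks had 50% or more of their width under a peak of another library of the same mark.

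H3K4me3 peaks were more numerous and of more even width, and H3K4me1 peaks were spread from short to very wide. The H3K4me3 libraries held 15948, 16164 and 15999 peaks, and the H3K4me1 libraries 14403, 14517 and 14422. The groups did not overlap (difference in means 1590 peaks; exact permutation test, two-sided, p = 0.1). The median width was 787, 805 and 794 bp for H3K4me3, against 821, 908 and 907 bp for H3K4me1. All 3 H3K4me1 libraries lay above the H3K4me3 libraries, replicate 1 by the least (difference in means -83.3 bp; exact permutation p = 0.1). The difference was -321 bp between mean widths and -480 bp between medians of peaks above the median score. The widest 10% of peaks began at 1373 ± 16.4 bp for H3K4me3 and at 2437 ± 171 bp for H3K4me1, while the narrowest 10% ended at 491 ± 5.35 bp for H3K4me3 and at 289 ± 7.37 bp for H3K4me1 (SD, n = 3). Peaks wider than 2000 bp made up 1.16% ± 0.0517 of H3K4me3 peaks and 15.1% ± 1.95 of H3K4me1 peaks. In all, H3K4me3 covered 13.9 ± 0.241 Mb and H3K4me1 17.2 ± 1.16 Mb.

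The marks also differed in where their summits lay. Nearly all summits fell in protein-coding genes, 96.8% ± 0.0287 of those of H3K4me3 and 98.8% ± 0.0957 of those of H3K4me1 (SD, n = 3). The median distance of summits from the 5′ end was 330, 329 and 333 bp in the H3K4me3 libraries, against 1443, 1395 and 1378 bp in the H3K4me1 libraries. The groups were far apart relative to their spread (difference in means -1075 bp; exact permutation p = 0.1). In genes with both marks H3K4me3 covered a median of 26.4%, 26.8% and 26.4% of the gene, and H3K4me1 41.4%, 45.6% and 45.5%. These groups did not overlap (difference in means -17.7 percentage points; exact permutation p = 0.1). An H3K4me3 peak covered 2 or more genes in 6.74% ± 0.106 of cases, against 1.17% ± 0.157 for H3K4me1, so neighbouring genes shared an H3K4me3 peak more often.

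The fold of each mark, ranked within its own list, differed between the classes. For H3K4me3 the median fold was 7.47, 7.05 and 7.64 over genes with both marks, against 6.25, 5.92 and 6.38 over genes with H3K4me3 alone. Every library gave the higher value to genes with both marks. In genes of 2000 to 3000 bp, where length differs little, the medians were 7.49 ± 0.340 for both marks and 5.82 ± 0.244 for H3K4me3 alone (SD, n = 3). The median number of bases under H3K4me3 was 771 ± 6.35 bp with both marks and 779 ± 15.5 bp with H3K4me3 alone, which made up 26.5% of the longer genes with both marks and 50.2% of the shorter genes with H3K4me3 alone. In genes of 2000 to 3000 bp it was 768 ± 5.20 bp with both marks and 905 ± 18.7 bp with H3K4me3 alone, so at equal length genes with H3K4me3 alone had more of it. For H3K4me1 the median fold was 2.75, 2.47 and 2.55 over genes with both marks, against 2.40, 2.27 and 2.23 over genes with H3K4me1 alone. Across the 9645 genes with both marks, the fold of H3K4me3 and the fold of H3K4me1 had a Spearman rho of 0.141 on average (0.0940 to 0.195 over the 9 pairings). Libraries of the same mark had a rho of 0.584 for H3K4me3 and 0.291 for H3K4me1, so the ranking of genes by H3K4me1 fold was itself poorly reproduced. Against gene length, rho was -0.103 for H3K4me3 fold and 0.307 for H3K4me1 fold; these correlations are across genes, which are not replicates.

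The other wild-type libraries of the series were not used to form the classes. They were called in the same window with the same 200 bp. The share over all genes is for calls in all 3 libraries, whereas the share of a class is the mean over single libraries, which runs higher; for H3K4me2 the class shares for all 3 libraries were 92.1% with both marks, 83.0% with H3K4me3 alone, 43.3% with H3K4me1 alone and 16.8% with neither. H3K4me2, the intermediate state, was called on 58.7% of all genes. It lay on 96.4% ± 0.519 of genes with both marks, 88.5% ± 1.77 of those with H3K4me3 alone, 49.1% ± 1.24 of those with H3K4me1 alone and 20.9% ± 1.17 of those with neither (SD, n = 3 libraries). H2A.Z, the histone variant of first nucleosomes, was called on 74.9% of all genes. It lay on 96.9% ± 0.335 of genes with both marks and 93.3% ± 0.630 of those with H3K4me3 alone, but on 52.1% ± 0.857 of those with H3K4me1 alone and 54.8% ± 1.08 of those with neither mark. At equal length, in genes of 2000 to 3000 bp, H2A.Z lay on 48.7% ± 1.64 of genes with H3K4me1 alone, below the 66.3% ± 1.08 of genes with neither.

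RNA polymerase II (Pol II) was found mainly on genes with H3K4me3, with or without H3K4me1. Total Pol II, called on 30.8% of all genes, lay on 50.6% ± 1.96 of genes with both marks, 60.4% ± 2.44 of those with H3K4me3 alone, 19.2% ± 1.79 of those with H3K4me1 alone and 8.92% ± 0.573 of those with neither. In replicates 1, 2 and 3 the shares were 48.3%, 51.2% and 52.1% with both marks, against 57.7%, 61.3% and 62.3% with H3K4me3 alone, so the groups did not overlap. The difference of -9.86 percentage points was -0.748 with classes made from peaks above the median score and -1.13 with H3K4me3 counted at gene ends and H3K4me1 over gene bodies, but -13.3 with the 14000 best peaks of each library and -16.0 in genes with no neighbour within 1000 bp. In genes of 2000 to 3000 bp it was -7.91 ± 1.06. Pol II phosphorylated on serine 5 of its tail, a form known from early transcription, was called on 28.7% of all genes. It lay on 53.6% ± 3.35 of genes with both marks and 55.02% ± 3.23 of those with H3K4me3 alone. Within each library the difference had the same sign, at -1.61, -1.36 and -1.41 percentage points, and in genes of 2000 to 3000 bp it averaged -4.43 ± 0.534. Pol II phosphorylated on serine 2, a form known from elongation, was called on 32.5% of all genes. It lay on 59.4% ± 4.30 of genes with both marks and 53.4% ± 3.42 of those with H3K4me3 alone. Within the 3 libraries the difference was 4.93, 7.06 and 6.02 percentage points. In genes of 2000 to 3000 bp the shares were 57.0% ± 4.00 with both marks and 54.1% ± 3.13 with H3K4me3 alone, and for calls in all 3 libraries they were 48.7% and 49.2%, so the direction turned there. The mean difference of 6.01 percentage points was 1.79 with the 14000 best peaks of each library and 13.4 with H3K4me3 counted at gene ends. With single libraries as pairs, the smallest p these data allow is 0.25 (exact sign-flip test), so none of these differences could pass a threshold.

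WDR5A-HA is a tagged form of the COMPASS subunit WDR5a; its libraries are labelled Col-0, and the labels name no promoter for the tagged gene. It was called on 35.8% of all genes. It lay on 67.3%, 60.6% and 70.7% of genes with both marks, 74.5%, 70.7% and 76.3% of those with H3K4me3 alone, 14.8%, 10.98% and 14.5% of those with H3K4me1 alone and 6.92%, 6.05% and 7.44% of those with neither mark. It thus went with H3K4me3 more than with H3K4me1 in every library. Among genes of 2000 to 3000 bp the mean shares were 67.9% ± 5.46 with both marks and 73.8% ± 2.29 with H3K4me3 alone, with differences of -4.51, -9.62 and -3.52 percentage points within the libraries.

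**Figure D3:**
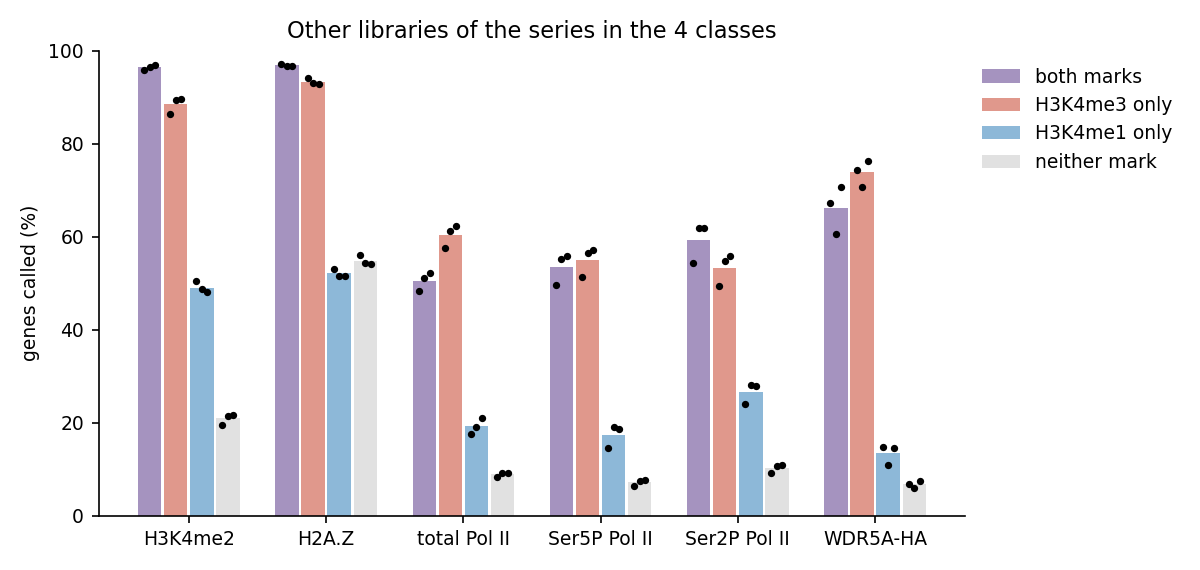
Bars give the mean share of genes called (vertical axis, percent) in each of the 4 classes for 6 other features of the wild type, and dots give the 3 libraries of each feature. H3K4me2 and H2A.Z exceed 88% in both classes with H3K4me3, and total Pol II is at 50.6% with both marks and 60.4% with H3K4me3 alone.

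Within H3K4me3 genes of one length range, H3K4me1 was least frequent where total Pol II was highest, a split chosen after the class shares were seen. Among H3K4me3 genes of 1500 to 2000 bp, 57.9% ± 3.90 of the 1024 genes with no total Pol II call in any library had H3K4me1 (SD, n = 3 H3K4me1 libraries). No call does not mean no Pol II, since a call needed 200 bp. The highest mean Pol II fold in this group was 8.93, above the 5.84 at which the highest group below began. In genes of 2000 to 3000 bp these values were 13.2 and 5.55. Genes with total Pol II in all 3 libraries were cut into 3 equal groups by Pol II fold. H3K4me1 was on 44.5% ± 1.37 of the lowest group, 47.5% ± 2.62 of the middle group and 30.3% ± 1.37 of the highest group, so the lowest and middle groups overlapped and the highest lay below them. H3K4me3 covered 37.8% ± 0.571 of the gene where no Pol II was called, and 45.8% ± 0.169, 47.8% ± 0.636 and 60.9% ± 0.898 in the lowest, middle and highest Pol II groups. In genes of 2000 to 3000 bp the shares with H3K4me1 were 80.3% ± 2.53 with no Pol II call, then 72.1% ± 1.60, 77.3% ± 1.46 and 64.2% ± 2.25 in the lowest, middle and highest groups, an order that did not follow Pol II fold between the lowest and the middle. The median lengths of these 4 groups were 2456, 2443, 2449 and 2436 bp.

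The 6 genes with the best joint rank of fold among those with both marks were ATG18H (AT1G54710, an autophagy gene), XPB1 (AT5G41370, a DNA repair helicase), AT5G42950, APY2 (AT5G18280, an apyrase), ESP1 (AT1G73840) and TIC (AT3G22380, TIME FOR COFFEE of the circadian clock). At XPB1, a gene of 4920 bp, the H3K4me3 fold was 11.1, 10.9 and 12.0 and the H3K4me1 fold 3.96, 3.87 and 2.81 in replicates 1, 2 and 3. Its H3K4me3 peaks spanned chr5:16551036-16551790 and its H3K4me1 peaks chr5:16552145-16553952, with no base in common. At TIC (6803 bp) the H3K4me3 fold was 10.6, 10.04 and 13.3 and the H3K4me1 fold 4.00, 2.57 and 3.91. TIC stood out by the width of its H3K4me3, which covered 46.5% of the gene against 12.1% to 26.0% in the other 5, and H3K4me1 covered 42.5% of it. At AT5G42950 (7115 bp) H3K4me3 covered 12.1% and H3K4me1 82.3% of the gene. Total Pol II was called in all 3 libraries on 2 of the 6, AT5G42950 and TIC, near the 43.5% of all genes with both marks.

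Genes with H3K4me3 alone and the highest fold included ATPD (AT4G09650, the delta subunit of the chloroplast ATP synthase), WLIM1 (AT1G10200, an actin-binding LIM protein), AT3G45210, AT1G76880, AT3G24480 and AT1G14453. AT1G14453 shared its H3K4me3 peak with the adjacent AT1G14450, so its mark cannot be assigned to either. At ATPD, a gene of 1151 bp, the H3K4me3 fold was 10.3, 12.0 and 12.9 and the peak covered 100% of the gene, with no H3K4me1 peak in any library. AT3G24480 (1682 bp) had folds of 11.3, 10.9 and 12.2 and H3K4me3 over 97.5% of its length. AT1G76880 was longer, 2912 bp, and its H3K4me3, with folds of 10.9, 11.3 and 12.5, still covered 83.3% of it. All but AT1G14453 had total, Ser5P and Ser2P Pol II in all 3 libraries, beside 54.4%, 47.8% and 47.4% of all genes with H3K4me3 alone.

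Genes with H3K4me1 alone and the highest fold were AT1G29350, AT1G29370, AT1G03165, DUF5 (AT2G47220), AT4G19060 and AT4G39110. By the rule that named them they had no H3K4me3 peak, and neither H3K4me2 nor H2A.Z was called on any of them in any library. Of all 337 genes of this class 43.3% and 50.1% had these in all 3 libraries. Only 240 of the 337 were free of any H3K4me3 peak, so the class is not a like set for the 6. At AT4G39110 (3246 bp) the H3K4me1 fold was 3.13, 3.36 and 2.97 and H3K4me1 covered 87.4% of the gene, with no Pol II call. DUF5 (3212 bp) had folds of 3.26, 3.36 and 3.33 and H3K4me1 over 34.4% of its length. It had Ser5P Pol II in 3 libraries, Ser2P Pol II in 1 and WDR5A-HA in 2. With H3K4me3 counted at gene ends DUF5 carried both marks. AT4G19060 had Ser2P Pol II in 2 libraries. At AT1G29350 and AT1G29370, loci of 5401 and 5478 bp that lie close together, H3K4me1 covered 5.65% and 7.13% of the gene. These peaks were short, and how well reads can be placed at these loci was not tested. AT1G03165 (989 bp) lay under the wide H3K4me1 peak of its neighbour FZL, so its mark cannot be assigned. It had total Pol II in 2 libraries, and Ser5P Pol II, Ser2P Pol II and WDR5A-HA in 3. Sharing of this kind was not rare in the class: for 64 of the 337 genes (18.99%) the H3K4me1 peak of replicate 1 also covered at least 200 bp of another gene, and 56 of these neighbours carried H3K4me3. Moreover 119 of the 337 genes (35.3%) overlapped another annotated protein-coding gene, against 24.9% of all genes.

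The longest genes of the classes showed how small a part of a gene each mark may take. ATM (AT3G48190, a kinase of the DNA damage response) is 27265 bp long. H3K4me3 covered 1.80% of it with folds of 5.91, 4.92 and 6.53, and H3K4me1 76.1% with folds of 2.99, 2.90 and 2.75. XIA (AT1G04600, a myosin of 10827 bp) was the longest gene with H3K4me3 alone, with H3K4me3 folds of 3.04, 2.65 and 2.91, but it had H3K4me1 in 2 of 3 libraries. POK2 (AT3G19050, a kinesin of 12530 bp) was the longest gene with H3K4me1 alone, with H3K4me1 folds of 2.54, 2.37 and 2.67, and had H3K4me3 in 2 of 3 libraries. Their class rests on 1 library each. The longest genes with no peak of either mark in any library were GSL09 (AT5G36870, of the callose synthase family, 16053 bp), AT2G34100 (13956 bp) and TIL2 (AT2G27120, 13184 bp), and H2A.Z was called on each of them in all 3 libraries.

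The genes whose products place or remove H3K4 methylation themselves mostly carried both marks. Of 20 such genes, 16 had both (background 35.1%), 3 had H3K4me3 alone and 1 had neither. These genes are long, with a median of 5867 bp. Of those of at least 3000 bp with H3K4me3, 13 of 13 also had H3K4me1, beside 87.6% of all H3K4me3 genes of that length, and at 2000 to 3000 bp 3 of 5 did, beside 68.7%. The count is thus near the share for genes of this length. Both marks were on all 7 SET-domain methyltransferase genes of the list, ATX1, ATX2, ATX3, ATX4, ATX5, ATXR3 and ATXR7, which are 6206 to 11182 bp long. At ATXR3, the main enzyme for H3K4me3 in Arabidopsis, the H3K4me3 fold was 9.02, 8.34 and 5.75 over 8.95% of the gene and the H3K4me1 fold 3.58, 3.34 and 2.21 over 82.5%. Replicate 3 was the lowest for both marks there. At ATX1 the H3K4me3 fold was 4.33, 5.65 and 5.24 and the H3K4me1 fold 2.93, 3.19 and 2.76.

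The genes of the COMPASS core subunits are shorter, and 3 of these 4 had H3K4me3 alone by the rule (background 22.9%). Of all H3K4me3 genes, 38.1% at 1500 to 2000 bp and 68.7% at 2000 to 3000 bp carried H3K4me1. With 4 genes, the count does not set the subunits apart from genes of their length. WDR5A (2150 bp), the gene of the subunit that the study tagged, had H3K4me3 folds of 8.28, 9.59 and 7.47 and no H3K4me1 in any library. ASH2R (2218 bp) had H3K4me3 folds of 10.2, 10.7 and 10.1, the highest of the list, and H3K4me1 folds of 2.12 and 1.71 in replicates 2 and 3, so it counts among genes with both marks where 2 of 3 libraries suffice. WDR5B (1605 bp) had H3K4me3 folds of 6.26, 4.96 and 5.76, and H3K4me1 with a fold of 1.81 in replicate 3. RBL (2823 bp) had both marks, with H3K4me3 folds of 8.59, 6.75 and 8.23 and H3K4me1 folds of 2.81, 1.94 and 2.42, and it shared a peak with PSBTN.

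The demethylase genes carried both marks with 1 exception. FLD, LDL1, LDL2 and LDL3, the LSD1-like group, had both, as did JMJ14, JMJ18, PKDM7D and AT1G63490 of the JmjC group. At LDL3 (8293 bp) the H3K4me3 fold was 8.26, 5.41 and 8.12 and the H3K4me1 fold 2.59, 3.21 and 4.08. At JMJ14 (5303 bp) the H3K4me3 fold was 7.35, 6.29 and 3.56 and the H3K4me1 fold 4.15, 3.28 and 2.34. The SD of the H3K4me3 fold over 3 libraries was 1.95 at JMJ14 and 1.61 at LDL3, which is as large as the differences between most demethylase genes, so their order is not resolved. JMJ15 (4755 bp) had neither mark in any library, with H2A.Z in all 3 and H3K4me2 in 2 of 3, and no Pol II call.

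**Figure D4:**
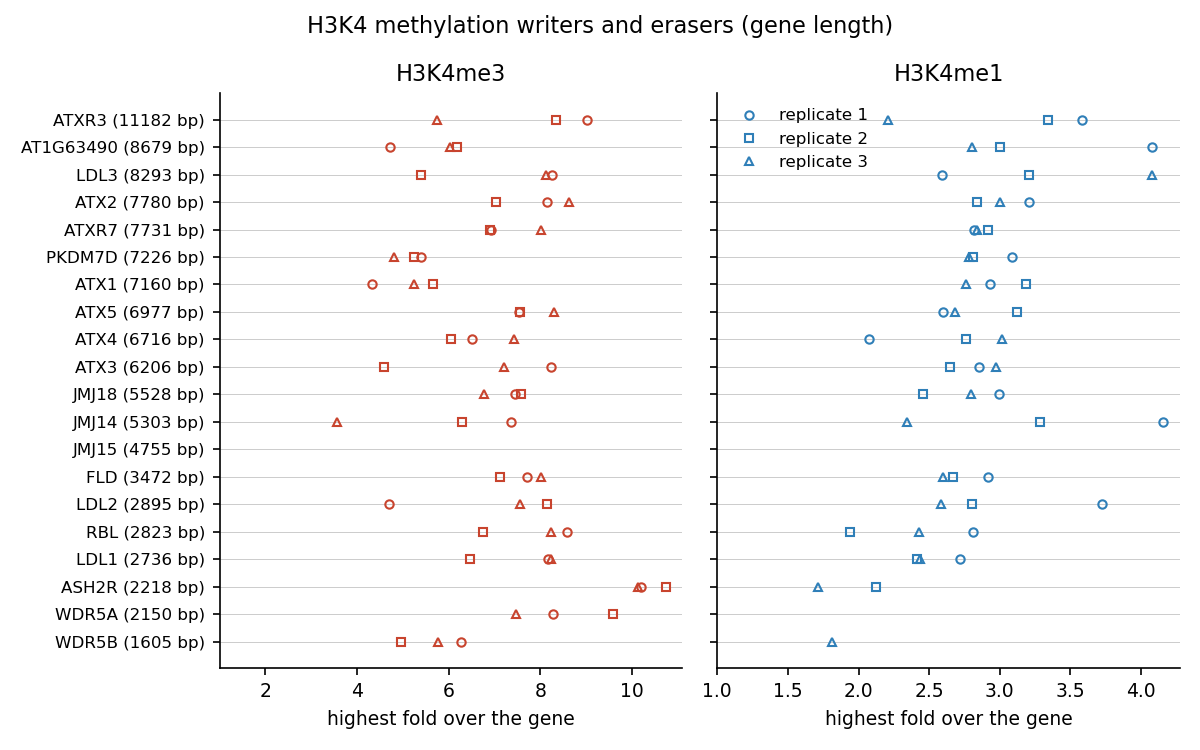
Each row is a gene of the H3K4 methylation machinery with its length in bp, and symbols give the highest fold over the gene (horizontal axes, one axis per mark) in each library where the gene was called. All 7 SET-domain genes have 3 symbols for each mark, WDR5A has none for H3K4me1, and JMJ15 has none for either mark.

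Photosynthesis genes and ribosomal protein genes, both known for strong transcription, fell in different classes. The photosynthesis list holds the light-harvesting proteins (LHCA and LHCB), the small subunit of Rubisco and its activase, and subunits of the photosystems. Of its 28 genes 26 had H3K4me3 alone (background 22.9%), 2 had neither, LHCB1.2 and LHCB1.4, and 0 had both marks. LHCB1.4 had H3K4me3 in 2 of 3 libraries. Of the 15 ribosomal protein genes 11 had both marks and 4 had H3K4me3 alone, each of the 4 with H3K4me1 in 1 or 2 libraries. All 28 and all 15 genes had total Pol II in all 3 libraries (background 30.8%). At PSAF (1466 bp), a photosystem I subunit, the H3K4me3 fold was 7.79, 10.6 and 11.01, H3K4me3 covered 98.0% of the gene, and no H3K4me1 was called. At LHCA3 (1698 bp) the fold was 8.98, 8.21 and 12.0 over 86.0% of the gene, again with no H3K4me1. At RPS6A (1826 bp) the H3K4me3 fold was 9.12, 9.84 and 10.7 over 41.7% of the gene, and the H3K4me1 fold 4.22, 3.07 and 3.74 over 47.2%. RPS5A (1722 bp) had H3K4me3 over 40.7% and H3K4me1 over 36.5% of its length.

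The lists differed within one range of gene length as well. Their median lengths were 1500.5 bp for photosynthesis and 1851 bp for ribosomal proteins. Within 1500 to 2000 bp, 0 of 12 photosynthesis genes and 6 of 8 ribosomal protein genes had both marks, beside 38.1% of all 2686 H3K4me3 genes of that length. In that range H3K4me3 covered a median of 83.7% of the photosynthesis genes and 40.5% of the ribosomal protein genes. Several LHCB and RBCS genes are near-identical copies that lie close together, and the sources used here do not say how reads with several matches were placed, so their single values are uncertain.

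Of the 24 clock and light receptor genes 20 carried both marks (background 35.1%) and 4 carried H3K4me3 alone. At 3000 bp or more 18 of 19 had both, beside 87.6% of H3K4me3 genes of that length, and at 2000 to 3000 bp 2 of 4 did, beside 68.7%, so the count is near the share for the length. ZTL (3271 bp), a light-sensing F-box protein of the clock, had H3K4me3 folds of 10.7, 9.84 and 12.3 and H3K4me1 folds of 2.96, 2.53 and 3.34. PHYB (4706 bp), a red-light receptor, had H3K4me3 folds of 9.06, 8.59 and 9.51 and H3K4me1 folds of 4.06, 2.60 and 4.18. PHYC and CRY2, also photoreceptors, had both marks too. In the transcription elongation list 10 of 12 genes had both marks, among them NRPB1 (the largest Pol II subunit), SPT16, SPT5-2 and VIP4. At NRPB1 (7571 bp) H3K4me3 covered 10.1% and H3K4me1 78.2% of the gene. Chromatin regulators had both marks on 20 of 21 genes, with SDG8 (9533 bp) under H3K4me3 for 7.73% and H3K4me1 for 81.7% of its length. INO80, LHP1 and FIE belonged to the same class. In 20 of the 21 the gene was at least 3000 bp long, where 87.6% of H3K4me3 genes had H3K4me1. Of the elongation genes 10 were that long, and 9 of the 9 of these with H3K4me3 had both marks, so neither count stands far from the share for its length.

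DNA replication genes were spread over the classes. Of 10 genes 3 had both marks (background 35.1%), 3 H3K4me3 alone (22.9%), 2 H3K4me1 alone (1.23%) and 2 neither (40.8%). Their median length was 4453.5 bp, and H3K4me1 alone was on 2.55% of all genes of 4000 to 5000 bp and 3.62% at 5000 to 7500 bp. Of those of at least 3000 bp with H3K4me3, 3 of 3 had both marks, beside 87.6% of all such genes. Several of these classes rest on single libraries: of the genes with H3K4me1 alone, MCM2 had H3K4me3 in 2 of 3 libraries and MCM3 in 1, and MCM6, with neither by the rule, had H3K4me3 in 1 and H3K4me1 in 2. MCM4 (4451 bp), a subunit of the replicative helicase, had H3K4me3 folds of 2.80, 2.04 and 2.29 and H3K4me1 folds of 2.82, 2.60 and 2.45. RNR1, of ribonucleotide reductase, had H3K4me3 folds of 2.79, 3.85 and 3.63. These H3K4me3 folds lay near the lowest 10% of the H3K4me3 lists, which ended at 3.23 ± 0.161. PCNA1 had H3K4me3 alone and shared its peak with MAC5A, and PCNA2 shared its peak with MAC5B, so their H3K4me3 cannot be assigned to either gene. Such genes are known to be transcribed mainly in dividing cells, and in whole seedlings fewer cells with a mark and less of it per cell cannot be told apart.

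The lists of flowering and meristem, floral organ and seed storage genes, most known to be silent or weakly expressed in seedlings, carried neither mark for the most part. Of 14 flowering and meristem genes 9 had neither (background 40.8%), 3 had H3K4me3 alone and 2, SVP and FLM, had both. SVP (4255 bp), a floral repressor, had H3K4me3 folds of 8.87, 9.45 and 9.30 and H3K4me1 folds of 3.60, 2.80 and 3.23. CO (2924 bp) had H3K4me3 folds of 8.54, 8.82 and 5.89, and H3K4me1 in 1 library. Of 12 MADS-box genes of floral organs 11 had neither mark (background 40.8%), and SEP4 had H3K4me3 folds of 4.01, 3.81 and 3.42. Of 11 seed storage and oleosin genes 10 had neither (background 40.8%), and OLEO4 had H3K4me3 folds of 2.74, 2.24 and 2.25. Of 15 heat, cold and drought inducible genes 9 had neither (background 40.8%) and 6 had H3K4me3 alone (background 22.9%). Among the 6 were DREB2A, with H3K4me3 folds of 4.84, 5.12 and 4.50, and HSP101, with 4.24, 4.04 and 3.77. None of the 15 had both marks (background 35.1%), though DREB2A and HSP101 each had H3K4me1 in 2 of 3 libraries. The inducible genes were not free of Pol II: total and Ser2P Pol II were each on 7 of 15 (backgrounds 30.8% and 32.5%). Total Pol II was on 2 of 14 flowering and meristem, 1 of 12 floral organ and 0 of 11 seed storage and oleosin genes. Short genes carried neither mark more often, 57.7% of all genes at 1000 to 1500 bp and 79.3% at 500 to 1000 bp. The flowering and floral organ lists are longer, with medians of 3551.5 and 3285.5 bp. Neither mark was on 27.4% of all genes at 2000 to 3000 bp and 21.7% at 3000 to 4000 bp. As a check of the labelled tissue, H3K4me3 was on 26 of 28 photosynthesis genes and on 1 of 11 seed storage and oleosin genes, beside 58% of all genes. Under 1500 bp it was on 12 of 14 photosynthesis genes, 0 of 7 seed storage and oleosin genes and 1 of 6 inducible genes.

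**Figure D5:**
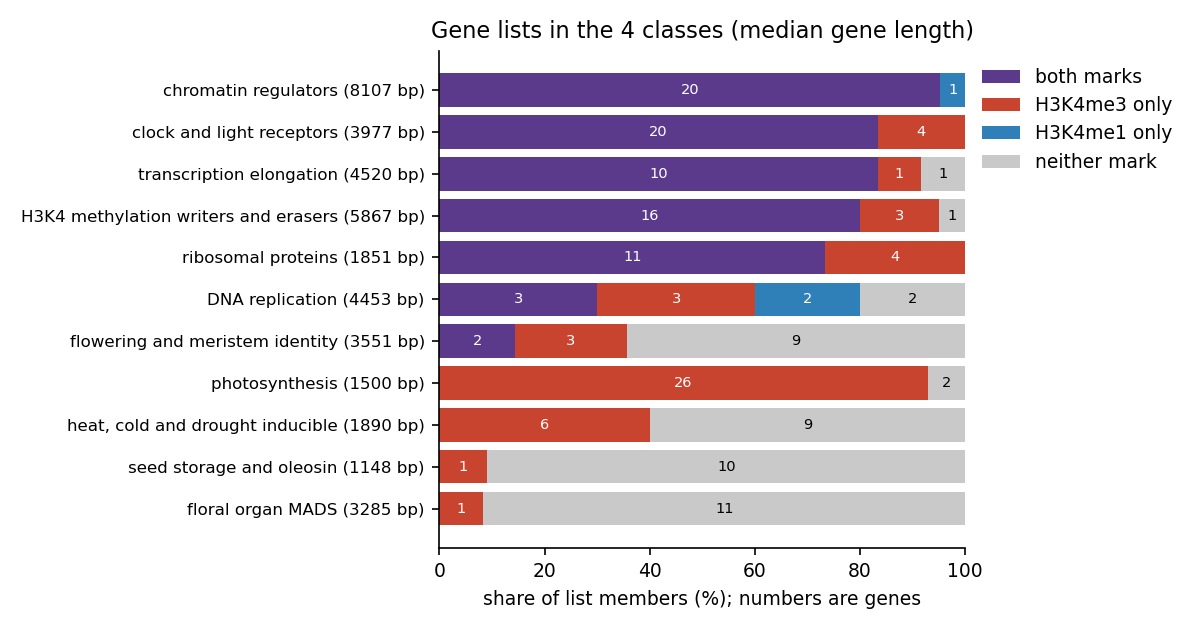
Each bar is a gene list, with its median gene length in bp, divided by the share of members (horizontal axis, percent) in the 4 classes, and the numbers are genes. Photosynthesis genes have H3K4me3 alone in 26 of 28 cases and ribosomal protein genes have both marks in 11 of 15.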

How the data were processed

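Chromatin immunoprecipitation peak lists of wild-type seedlings were analysed. The submitters' processing notes name fastp for trimming, Bowtie2 2.3.3 with the TAIR10 build for alignment, and MACS2 2.2.5 for peaks of each library. The sources used here do not name the control. The deposited lists hold, per peak, its bounds and summit, a fold (a ratio to the caller's background), −log10 of p and q, and a score equal to 10 times −log10 q. Every H3K4me3 and H3K4me1 peak met a q of 0.05. Depth was unknown, and no limit that needs it was computed.

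Genes were those of the RefSeq table of TAIR10.1, which has no strand column; as a check of the coordinates, genes held 96.9% of the summits of H3K4me3 replicate 1, and 67.8% to 69.9% once shifted by 1000 or 2000 bp. A gene was oriented when its best H2A.Z summit lay below 0.4 or above 0.6 of its length in all 3 libraries. A gene's fold in a library is its highest among peaks that met the 200 bp rule. Peak spans of named genes run from the first to the last base over the libraries. Library values went into two-sided exact permutation tests; class shares, lists and correlations are descriptions without a test. The deposited positions-only lists for the whole series served as an alternative.

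Members, gene lists and tests were chosen with earlier results of these data known. Named genes were, for both marks, the 6 with the lowest mean rank of fold; for a mark alone, the 6 with the highest fold and no peak of the other; the 3 longest with neither and the longest of each other class; all H3K4 writers and erasers; and, of each other list, the 2 highest in each mark. LHCB1.2, LHCB1.4 and list members given only by class were named after their values were seen. A list for TBP and a motif search in promoters were planned; the TBP list has no sample in the labels and was not used here, and no promoter sequence was used here. All 182 genes of the 11 lists were found by identifier. Calls, orientation and tests were tested on simulated data. Computation used Python 3.11.15, numpy 2.4.6, pandas 2.3.3, scipy 1.17.1 and matplotlib 3.10.9.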

Additional observations from a re-analysis of the deposited data

How the results depend on the processing

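No difference in median length, peak number, width, position or coverage changed direction under the alternatives run. The order of the class sizes did: genes with both marks outnumbered those with H3K4me3 alone as reported, but numbered 2484 against 4318 with peaks above the median score and 941 against 1226 in genes with no neighbour within 1000 bp, where 36.5% and 43.4% of H3K4me3 genes carried H3K4me1. The number of genes with H3K4me1 alone, 337 as reported, depended most on the rule. It was 530 with at least 500 bp covered, 564 with at least 2 of 3 libraries, 1539 with peaks above the median score, 531 with the lists for the whole series, 914 with a summit within the gene and 674 with the 14000 best peaks of each library. Leaving out a library gave 320 to 520. With peaks above the median score, genes with neither mark numbered 19103, since 50% of the peaks were removed. Among the 5345 genes with no near neighbour, 18 had H3K4me1 alone and 3160 neither, beside 337 and 11191 of all 27444 genes. The share with H3K4me1 alone was thus smaller in these genes and the share with neither larger.

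The difference in median length, both marks minus H3K4me3 alone (1257 bp), was 1357.5 bp with at least 500 bp covered, 1244 bp with 2 of 3 libraries, 1278.5 bp with peaks above the median score, 1232.5 bp with the whole-series lists, 1286.5 bp with gene ends for H3K4me3, 1275.5 bp with the 14000 best peaks and 1316 bp in genes with no near neighbour. Leaving out a library gave 1240 to 1257 bp. The difference of H3K4me1 alone minus H3K4me3 alone (1088 bp) was 991.5 bp with at least 1 bp covered, 1531.5 bp with 500 bp, 964 bp with 2 of 3 libraries, 1669 bp above the median score, 848.5 bp with the whole-series lists, 1792.5 bp with gene ends, 1021.5 bp with a summit within the gene, 1546.5 bp with the 14000 best peaks and 603 bp in genes with no near neighbour. Leaving out a library gave 998 to 1092.5 bp. The causes of these shifts were not tested.

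The share of H3K4me3 peaks touching H3K4me1 (35.7%) was 41.7% above the median score and 0.0963% when 50% of the peak had to be covered. Of the 72 named genes 33 kept their class under all 14 alternatives that apply to them. Same-numbered libraries paired weakly: the correlation of their deviations in fold was 0.0710, 0.0661 and 0.0629. For libraries of different number it was -0.0405 to -0.0280. Deviations of a gene over the 3 libraries of a mark cancel out, so these negative values follow from the positive ones and add no separate evidence of pairing. With the replicate block, an exact sign-flip test, the difference in peaks per library stayed at 1590, in median width at -83.3 bp, in summit distance at -1075 bp and in gene coverage at -17.7 percentage points, each with p = 0.25, the smallest that 3 pairs allow. Depth was unknown, so a missing peak does not show a missing mark.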

Other observations

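The widest peaks of the marks, picked in replicate 1 only, lay in different genes. In replicate 1 the widest H3K4me3 peaks measured 3567 bp at AT1G18740 and AGL65, 3232 bp at TIC, 3199 bp at XYL4, 3142 bp at BAM2 and 3052 bp at ROS3 and PHOT2. The TIC peak measured 3232, 3093 and 3165 bp in replicates 1, 2 and 3 and the XYL4 peak 3199, 3263 and 3273 bp, so these widths were stable, whereas the peak at AT1G18740 and AGL65 measured 1928 bp in replicate 2.

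The widest H3K4me1 peaks of replicate 1 each lay in a single gene of at least 12406 bp. They measured 12652 bp at GSL10 (chr3:2266679-2279330), 11137 bp at SWEETIE, 11094 bp at SPI, 10908 bp at RGD3 and 9713 bp at GSL8. SWEETIE, with 11137, 10965 and 11361 bp, and RGD3, with 10908, 11016 and 10677 bp, had nearly the same width in each library. At GSL10 the widest peak measured 5801 and 4659 bp in replicates 2 and 3, and at SPI 6662 and 5858 bp. These peaks were chosen after their widths in replicate 1 were seen. The widest H3K4me1 peak of all measured 17301 bp in replicate 2 and 15567 bp in replicate 3. For H3K4me3 the widest in replicate 2 measured 4111 bp. The genes under these 3 peaks are not given here.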
